A study of Mus musculus with 12 samples.

Results

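Albumin and 8 other plasma carrier protein genes made by hepatocytes were followed: Alb, Gc, Ttr, Rbp4, Trf, Selenop, Ahsg, Ambp and A1bg. They are 9 of the 15664 genes tested and of the 27924 genes with any count, and all 9 passed the filter on low counts. The first 8 were listed as abundant secreted proteins, whereas A1bg was chosen by its measured values, a large fall in the knock-in, so its genotype differences are described here without a test. RNA came from primary hepatocytes, liver parenchymal cells taken from the mouse and cultured. Donors were wild-type animals (AEG-1-WT) or knock-in animals (AEG-1-L24K/L25H), littermates of heterozygous parents on a C57BL/6/J background. The knock-in allele was made with CRISPR/Cas9 and changes residues of AEG-1, which is the product of Mtdh. Cells of each genotype were untreated or received the PPAR-alpha agonist CP775146, which acts on a nuclear receptor for fatty acids, for 24 h at 2.5 µM, reading the symbol-font letter before M in the label as micro. Each of the 4 groups has 3 libraries. The labels do not name a vehicle for the untreated cells, nor the age or sex of the donors, and they do not tie the high-fat diet they mention to any library. Nor do they say that libraries of a group came from separate mice or cultures, so p-values measure the spread between these libraries, which may be technical. Genotype and hepatocyte preparation cannot be told apart, nor can CP775146 and its vehicle.

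Plasma carriers keep poorly soluble ligands, metals and hormones in circulation, and the liver is the main source of nearly all of them. Albumin binds fatty acids, bilirubin and drugs and holds much of the oncotic pressure of plasma. The genes Alb and Gc belong to the albumin family and both lie on chromosome 5. In cultured hepatocytes the RNAs of this class are widely used as a readout of the differentiated state, and many of them fall in the acute-phase response.

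Total counts were 26956032 to 34885451 per library. Differences were tested with edgeR over all genes, a gene is called where its Benjamini-Hochberg adjusted p is below 0.05, and log2 differences are knock-in minus wild type or treated minus untreated. Ehhadh, a PPAR-alpha target, was 50.9 to 55.6 CPM (counts scaled to a common library size with TMM factors) in untreated and 3819 to 4001 in treated wild type, and 68.0 to 69.3 against 5078 to 5255 in the knock-in. Mtdh ran from 157 to 197 CPM over the 12 libraries, and gene-level counts cannot show the allele. The 17 hepatocyte markers outside the 9 genes summed to 17900 to 23600 CPM. Among markers of other cells, the 10 lymphocyte and neutrophil genes summed to at most 0.306 CPM, with Cd3d, Ms4a1 and Mpo at 0 in all libraries. The spread between libraries was larger in wild type (biological coefficient of variation 5.1% untreated and 5.33% with CP775146) than in the knock-in (2.58% and 2.61%).

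The sequence before the transcription start is shown for 4 of the genes, because Alb and Gc belong to the same gene family and Ahsg and A1bg have the largest genotype differences. The 250 bases were taken from RefSeq (GRCm38.p6) at chr5:90460620-90460869 (plus strand) for Alb, chr5:89457899-89458148 (minus strand) for Gc, chr16:22891765-22892014 (plus strand) for Ahsg and chr15:60921271-60921520 (minus strand) for A1bg. Each is printed 5′ to 3′ on the strand of its gene. Capitals mark CCAAT, the core of sites bound by NF-Y, searched on both strands, so that ATTGG is its reverse complement.
Alb: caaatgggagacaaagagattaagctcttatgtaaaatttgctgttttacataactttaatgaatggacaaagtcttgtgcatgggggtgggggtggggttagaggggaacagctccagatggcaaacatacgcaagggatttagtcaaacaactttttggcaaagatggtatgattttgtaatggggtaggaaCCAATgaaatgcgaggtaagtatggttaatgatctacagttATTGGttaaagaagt
Gc: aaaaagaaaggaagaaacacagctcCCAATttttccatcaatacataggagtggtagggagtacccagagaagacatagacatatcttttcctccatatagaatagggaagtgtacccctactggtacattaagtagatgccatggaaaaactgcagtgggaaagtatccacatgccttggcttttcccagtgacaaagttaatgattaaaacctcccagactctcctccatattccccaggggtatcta
Ahsg: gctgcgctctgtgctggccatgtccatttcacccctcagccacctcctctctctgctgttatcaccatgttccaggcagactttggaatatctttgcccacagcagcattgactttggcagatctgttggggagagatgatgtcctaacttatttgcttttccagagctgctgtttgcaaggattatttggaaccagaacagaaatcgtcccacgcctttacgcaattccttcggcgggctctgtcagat
A1bg: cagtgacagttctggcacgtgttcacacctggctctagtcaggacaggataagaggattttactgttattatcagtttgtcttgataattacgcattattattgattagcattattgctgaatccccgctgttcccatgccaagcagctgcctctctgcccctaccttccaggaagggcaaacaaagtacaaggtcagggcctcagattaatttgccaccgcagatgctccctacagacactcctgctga
CCAAT is found at 2 places in Alb, the nearer 10 bases before the RefSeq start, and once in Gc, 220 bases before its RefSeq start. For Alb that start is 90460870, whereas the annotation used for the counts begins at 90460897. CCAAT is in neither the Ahsg nor the A1bg window. Of the other genes whose RefSeq windows were searched, Ambp holds it once, Rbp4 holds it in 1 of its 2 windows and Selenop in none. No window of Ttr or Trf was searched. Of all 32851 mouse promoter windows of this length, 33.8% hold CCAAT on either strand, and a match in letters is a description only.

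By exon length, Alb was the most abundant of all 15664 tested genes in untreated wild type, at 43600 ± 702 CPM per kilobase of exon (SD, n = 3). Ahsg ranked 3, Gc 5, Selenop 8, Ttr 13, Rbp4 15 and Ambp 18. A1bg was far below, at 11.2 ± 0.231 CPM per kilobase and rank 4571. In untreated wild type the order was Alb, Ahsg, Gc, Selenop, Ttr, Rbp4, Ambp, Trf and A1bg, and no neighbours in it overlapped. In the untreated knock-in Ahsg moved from place 2 to place 4, behind Gc and Selenop. With CP775146, neighbours overlapped at 2 points: Selenop and Ttr in wild type, and Ahsg and Rbp4 in the knock-in.

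The level of Trf, the iron carrier transferrin, is limited by the annotation. Of its 3320 exonic bases (GRCm38, chromosome 9, 103204001 to 103230444, minus strand), 2108 are shared with the gene model Gm20425 on the same strand, or 63.5%. Gm20425 holds 0 counts in every library, and the counting command in the file headers has no option for reads that overlap more than 1 gene, which featureCounts leaves out by default. Per kilobase of all exons Trf was 246 ± 6.09 CPM in untreated wild type, and per kilobase of the 1212 unshared bases it would be 674 CPM. Its level is therefore uncertain, but on either length it stood at place 8 of 9 in all 4 groups: per kilobase of unshared bases it was 574 to 775 CPM, between Ambp (1010 to 1540) and A1bg. Differences between libraries compare the same bases. Ttr shares 11 exonic bases with an antisense gene, and the other 7 genes share none.

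Together the 9 genes held 13.4% ± 0.073 of all counts in untreated wild type and 12.6% ± 0.24 with CP775146 (SD, n = 3 each). The same share was 10.4% ± 0.26 in the untreated knock-in and 8.78% ± 0.18 in the treated knock-in. Per library it was 13.37, 13.51 and 13.41% in wild type, 12.48, 12.44 and 12.87% in treated wild type, 10.58, 10.43 and 10.07% in the knock-in and 8.603, 8.962 and 8.777% in the treated knock-in. No library of a group reached the range of another. Alb made up 72.0 to 79.4% of this sum. The widest 95% Wilson interval, for counting error only, was ± 0.011 percentage points for the share of a single gene and ± 0.013 for the sum. A share is set by everything else in the library as well, and fewer cells of a type and less RNA per cell cannot be told apart in these bulk samples.

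**Figure D1:**
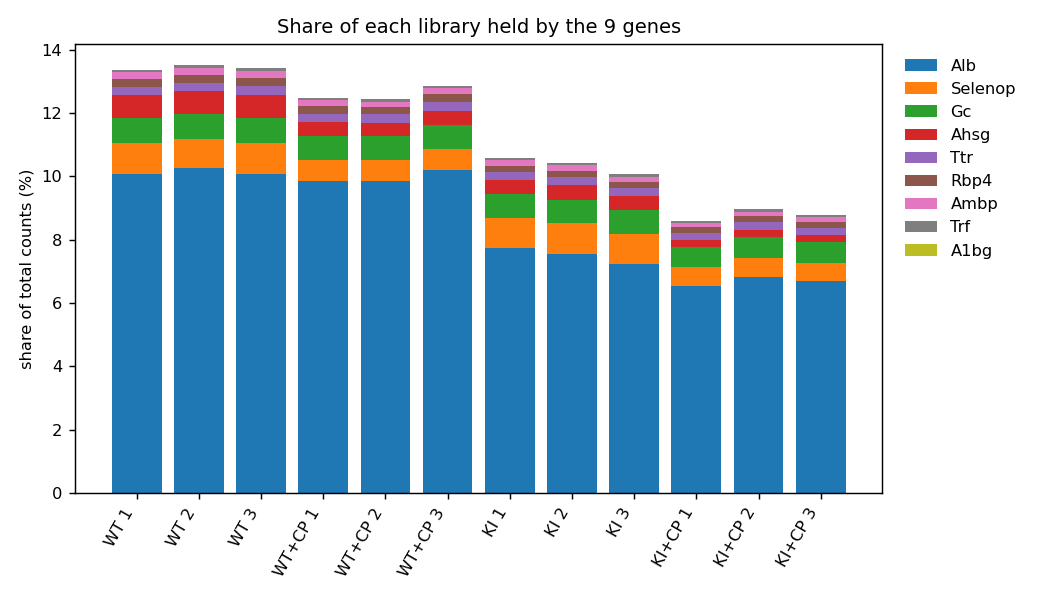
Share of total counts (%, stacked bars) held by each of the 9 genes in each of the 12 libraries, with WT for wild type, KI for knock-in and +CP for CP775146. The stacks run from 13.37 to 13.51% in untreated wild type down to 8.603 to 8.962% in the treated knock-in, and Alb is the largest block in each.

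Alb itself was 101500, 104000 and 100900 CPM in untreated wild type and 72570, 70930 and 68090 CPM in the untreated knock-in. With CP775146 it was 105500, 106100 and 111500 CPM in wild-type cells, while the knock-in had 64310, 66930 and 65630 CPM. All 6 knock-in libraries lie below all 6 wild-type libraries. The genotype difference was 1.45-fold lower in untreated knock-in cells (log2 -0.53, SE 0.04, edgeR quasi-likelihood adjusted p = 6.72e-13) and 1.64-fold lower with CP775146 (log2 -0.71, SE 0.04, adjusted p = 8.63e-16). CP775146 moved Alb little: the log2 difference was 0.08 in wild type (SE 0.04, edgeR adjusted p = 0.089) and -0.10 in the knock-in (SE 0.04, adjusted p = 0.0246). The call in the knock-in was lost without untreated knock-in library 1 or 2 or treated library 1 or 3, and the wild-type value passed with limma voom (0.08, adjusted p = 0.0214) and turned negative with total-count scaling (-0.02).

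Gc, the vitamin D binding protein and carrier of free actin, lies 1.0 Mb from Alb. It was 7837, 7722 and 8126 CPM in wild type and 8116, 8184 and 8180 CPM in treated wild type, which overlap. In the knock-in it was 7044, 7037 and 6860 CPM, and 6350, 6379 and 6367 CPM with CP775146, which do not. The genotype difference was log2 -0.18 (SE 0.03, edgeR adjusted p = 9.65e-05) untreated and -0.36 (SE 0.03, adjusted p = 5.28e-10) treated. With total-count scaling these were -0.08, no longer called (edgeR adjusted p = 0.0642), and -0.22. CP775146 lowered Gc 1.10-fold in the knock-in (edgeR adjusted p = 0.00233), whereas the value in wild type was log2 0.05 (SE 0.03, adjusted p = 0.267).

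Ttr and Rbp4 travel in plasma as a complex: Rbp4 carries retinol, and transthyretin carries thyroxine and holds Rbp4 in circulation. Ttr was 2550, 2554 and 2898 CPM in wild type and 2893, 2773 and 3159 CPM with CP775146. In the knock-in it was 2483, 2509 and 2443 CPM untreated and 2197, 2334 and 2354 CPM treated. The wild-type libraries spread most, with a coefficient of variation of 7.49% untreated. Ttr did not pass the test between untreated genotypes (log2 -0.11, SE 0.05, 95% interval -0.21 to -0.01, edgeR adjusted p = 0.091), but it was 1.28-fold lower in treated knock-in cells (adjusted p = 1.31e-06). The untreated value was -0.04 without untreated wild-type library 3 and -0.004 with total-count scaling, which gave -0.22 for the treated one. With CP775146 it rose in wild type (log2 0.14, SE 0.05, edgeR adjusted p = 0.0197), although the groups overlap, and this call was lost without untreated wild-type library 1 or 2 or treated library 3, in a fit of the 2 groups alone and with total-count scaling (0.04). In the knock-in the value was -0.11 (SE 0.05, edgeR adjusted p = 0.0753). It passed with limma voom (adjusted p = 0.0143), with total-count scaling (-0.175, edgeR adjusted p = 0.00516) and in a fit of the 2 groups alone (-0.106, edgeR adjusted p = 0.00113).

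Rbp4 ran from 2399 to 2669 CPM over the 6 wild-type libraries and from 1766 to 1851 over the 6 knock-in libraries, with no overlap. It was 1.34-fold lower in the untreated knock-in (log2 -0.43, SE 0.04, edgeR adjusted p = 8.98e-11) and 1.42-fold lower in treated cells (log2 -0.51, SE 0.04, adjusted p = 1.68e-12). CP775146 gave log2 0.06 in wild type (95% interval -0.02 to 0.13, edgeR adjusted p = 0.209) and -0.02 in the knock-in (-0.10 to 0.05, adjusted p = 0.658), where total-count scaling gave -0.09 (adjusted p = 0.0473). The ratio of Rbp4 to Ttr within a library does not depend on scaling. Per 100 CPM per kilobase of Ttr there were 86.9 ± 5.5 of Rbp4 in wild type and 69.3 ± 0.67 in the knock-in, then 81.8 ± 2.1 and 73.7 ± 1.9 with CP775146 (SD, n = 3 each). The genotypes did not overlap in either condition (exact permutation p = 0.1, two-sided, the smallest that 3 against 3 libraries can give).

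Trf was 798.6, 813.1 and 838.5 CPM in wild type and 894.1, 932.8 and 991.1 CPM with CP775146, a rise of log2 0.20 (SE 0.04, edgeR adjusted p = 0.000106). In the knock-in it was 754.9, 751.5 and 770.0 CPM untreated and 664.0, 714.1 and 709.0 CPM treated, a fall of 1.09-fold (edgeR adjusted p = 0.0128). Treatment thus moved this gene in opposite directions in the 2 genotypes, and the groups do not overlap in either. The genotype difference was small in untreated cells (log2 -0.11, SE 0.04, edgeR adjusted p = 0.0347) and larger in treated cells (-0.43, SE 0.04, adjusted p = 2.61e-10). The untreated difference lost its call in 5 of the 6 fits that each left out a library of the 2 groups (all but untreated wild-type library 1), and the fall in the knock-in without its untreated library 3 or treated library 1. The untreated difference was also not called with no filter (-0.09, edgeR adjusted p = 0.0926), and it was near 0 with total-count scaling (-0.004, adjusted p = 0.939). The rise in wild type was 0.10 with total-count scaling (edgeR adjusted p = 0.0267) and 0.09 with total counts less the 9 genes as library size (adjusted p = 0.0561).

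Selenop encodes the selenium carrier of plasma and was among the 3 genes that fell with CP775146 in both genotypes. In wild type it went from 10000, 9458 and 9886 CPM to 6960, 7294 and 7205 CPM. In the knock-in it went from 8938, 8983 and 8904 CPM to 5727, 5942 and 5756 CPM. The fall was 1.37-fold in wild type (log2 -0.45, SE 0.04, edgeR adjusted p = 7.02e-12) and 1.54-fold in the knock-in (log2 -0.62, SE 0.04, adjusted p = 5.79e-15). The genotype difference was log2 -0.13 (SE 0.04, edgeR adjusted p = 0.00397) in untreated and -0.30 (adjusted p = 3.41e-08) in treated cells, and with total-count scaling the untreated one did not pass (log2 -0.03) and the treated one was -0.16.

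Ahsg encodes fetuin-A, which binds calcium phosphate and keeps it from precipitating. It had the largest falls of the 8 abundant genes in every comparison of 2 groups. Wild-type libraries held 7474, 7571 and 7196 CPM untreated and 4646, 4479 and 4816 CPM with CP775146. Knock-in libraries held 4145, 4182 and 4161 CPM untreated and 2079, 2303 and 2119 CPM treated. No groups overlap: treated wild type lies just above the untreated knock-in, and the highest and lowest group means differ 3.42-fold. CP775146 lowered Ahsg in wild type (log2 -0.67, SE 0.04, edgeR adjusted p = 8.97e-15) and, 1.92-fold, in the knock-in (log2 -0.94, SE 0.04, adjusted p = 3.51e-18). The genotype difference was 1.78-fold (log2 -0.83, SE 0.04, adjusted p = 1.76e-16) in untreated and 2.14-fold (log2 -1.10, SE 0.04, adjusted p = 2.54e-19) in treated cells, both lower in the knock-in.

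Ambp encodes a precursor that is cut into alpha-1-microglobulin, a heme scavenger, and bikunin, a protease inhibitor. It ran from 2127 to 2241 CPM in wild type, 1812 to 1970 in treated wild type, 1573 to 1603 in the knock-in and 1407 to 1430 in the treated knock-in. No 2 groups overlapped. It fell with CP775146 by a like amount in each genotype (log2 -0.20, SE 0.04, edgeR adjusted p = 5.16e-05 in wild type, and -0.16, SE 0.04, adjusted p = 0.000705 in the knock-in). Its genotype difference was log2 -0.45 (SE 0.04, edgeR adjusted p = 2.08e-11) in untreated and -0.42 (adjusted p = 9.12e-11) in treated cells.

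A1bg encodes a plasma glycoprotein of the immunoglobulin superfamily. It was 19.97, 20.33 and 20.81 CPM in wild type, 18.96, 18.52 and 19.71 CPM in treated wild type, 2.208, 2.474 and 1.932 CPM in knock-in cells and 2.349, 2.607 and 2.364 CPM in the treated knock-in. These levels rest on 530 to 581 counts per wild-type library and 68 to 85 per knock-in library. The knock-in was 9.25-fold lower untreated and 7.80-fold lower treated, which is what the gene was chosen for. With CP775146 the log2 difference was -0.10 in wild type (SE 0.07, edgeR adjusted p = 0.252) and 0.15 in the knock-in (SE 0.13, 95% interval -0.11 to 0.41, adjusted p = 0.404). The wild-type groups nevertheless did not overlap, as for 49% of all tested genes, and with total-count scaling the wild-type value was -0.20 (edgeR adjusted p = 0.0163). Both responses use untreated libraries whose genotype difference chose A1bg. Their p-values are therefore not independent of that choice, and the responses are given as a description.

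**Figure D2:**
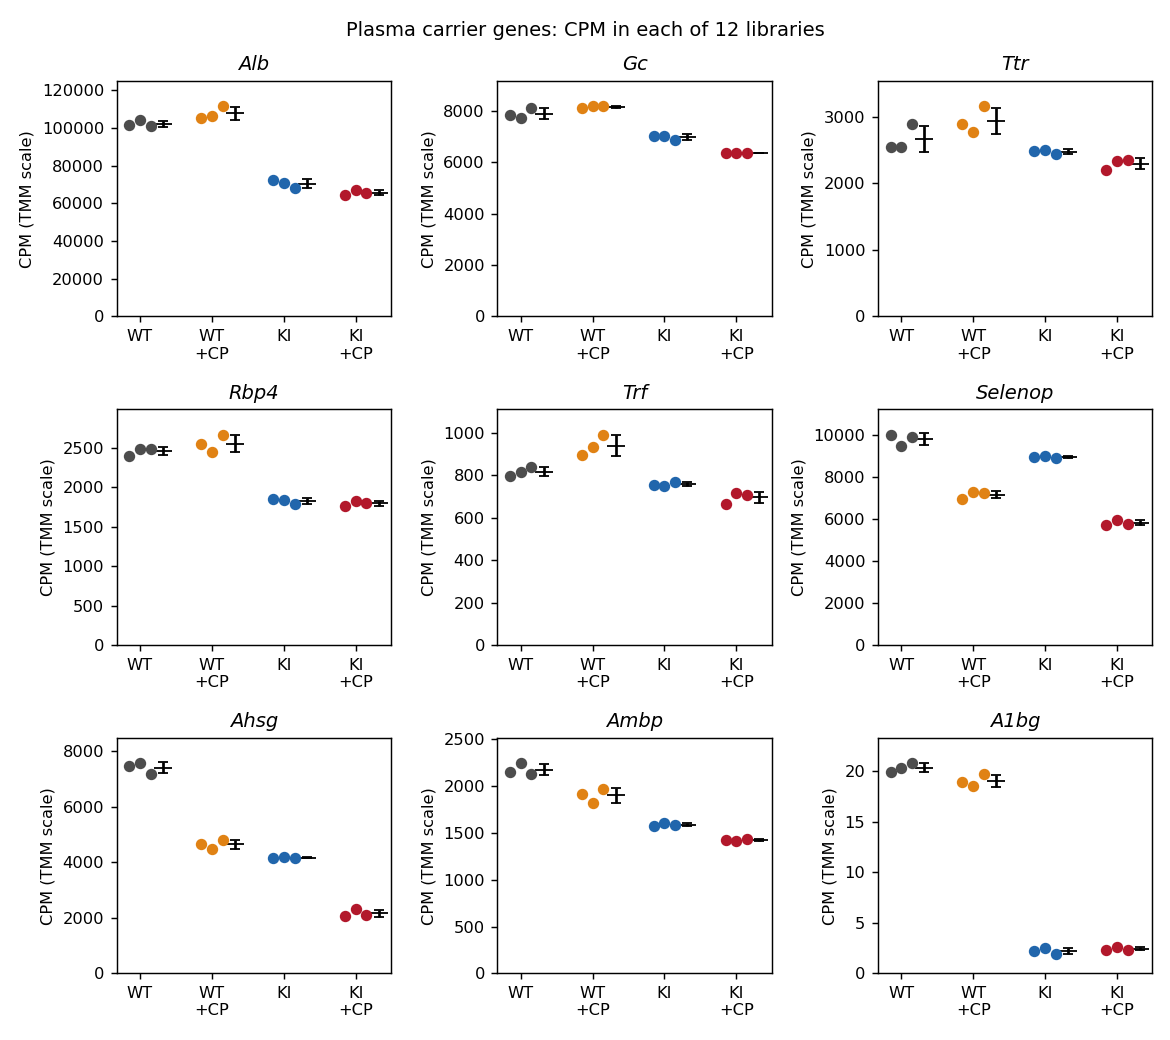
CPM on TMM-scaled library sizes (linear axes from 0) of each gene in each of the 12 libraries, 3 points per group, with the mean and SD in black. On this scale all knock-in libraries lie below all wild-type libraries in every gene but Selenop, narrowly so for Ttr (2509 against 2550 CPM). As shares of total counts this holds for Alb, Rbp4 and A1bg only, and A1bg was chosen for its fall. Of all tested genes, 23.8% lay lower in the untreated and 26.3% in the treated knock-in with no overlap of the 2 groups compared. Selenop, Ahsg and Ambp fall with CP775146 in both genotypes. Trf moves up in wild type (to 894.1 to 991.1 CPM) and down in the knock-in (to 664.0 to 714.1 CPM).

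Between untreated genotypes, 7 of the 8 genes other than A1bg were called lower in the knock-in, 0 higher and Ttr not called. Of all tested genes 37% were called, 18.6% lower and 18.4% higher. The list was chosen with earlier results of these data known, so the count is given as a description. The median log2 difference of the 8 was -0.30, and that of all genes was -0.004. With CP775146, 8 of 8 were called lower in the knock-in, where 42.5% of all genes were called, 22% lower and 20.5% higher, with a median of -0.42 against -0.013. Abundant genes were called more often than others: of the 218 genes with a mean of at least 500 CPM, a level chosen after the values were seen, 48.2% were lower in the untreated and 52.3% in the treated knock-in. With total-count scaling, which moved the median of all genes by about 0.1 in log2 (to 0.097 untreated and 0.124 treated), 4 of the 8 stayed called in untreated cells and 8 of 8 in treated cells.

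CP775146 called 2 of the 9 genes higher (Ttr and Trf) and 3 lower (Selenop, Ahsg and Ambp) in wild type. The background was 45% called in either direction (22.7% higher and 22.3% lower), so 5 of 9 is near the rate of all genes. In the knock-in 6 of 9 were called lower (Alb, Gc, Trf, Selenop, Ahsg and Ambp) and 0 higher, beside 37.2% of all genes called, 19.1% lower and 18.1% higher. Among the 218 abundant genes 24.8% were called lower and 49.5% higher in wild type, and 28.4% and 41.3% in the knock-in. In either direction the shares were 74.3% and 69.7%. A1bg lies below this level. Without it, 2 of 8 genes were called higher and 3 lower in wild type, and 0 and 6 of 8 in the knock-in. Whether these counts differ from the shares of abundant genes was not tested. The medians of the 9 were 0.05 and -0.13, beside -0.005 and -0.01 for all genes. The comparisons within a genotype share their untreated libraries with the genotype comparison.

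The response to CP775146 differed between the genotypes for 6 of the 8 genes, all lower in the knock-in, as tested by the interaction term. The log2 interaction was -0.33 for Trf (SE 0.06, edgeR adjusted p = 0.00024), -0.27 for Ahsg (SE 0.06, adjusted p = 0.00209) and -0.25 for Ttr (SE 0.07, adjusted p = 0.0234). For Gc it was -0.18 (SE 0.05, edgeR adjusted p = 0.017), for Alb -0.18 (SE 0.05, adjusted p = 0.0279) and for Selenop -0.17 (SE 0.05, adjusted p = 0.0318). Rbp4 (-0.08, 95% interval -0.19 to 0.02) and Ambp (0.03, -0.07 to 0.14) did not pass, and A1bg, given without a test, had 0.25 (SE 0.14). Over all genes 7.11% were called in this test, 4.33% lower and 2.78% higher, and among the 218 abundant genes 22.5% lower and 5.5% higher. The sizes are small, 1.13- to 1.25-fold, and the count is not stable: it was 2 with total-count scaling, 2 without untreated knock-in library 1, and 3 without untreated knock-in library 2, treated knock-in library 1 or treated wild-type library 3. Trf and Ahsg kept their calls in each of these fits.

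**Figure D3:**
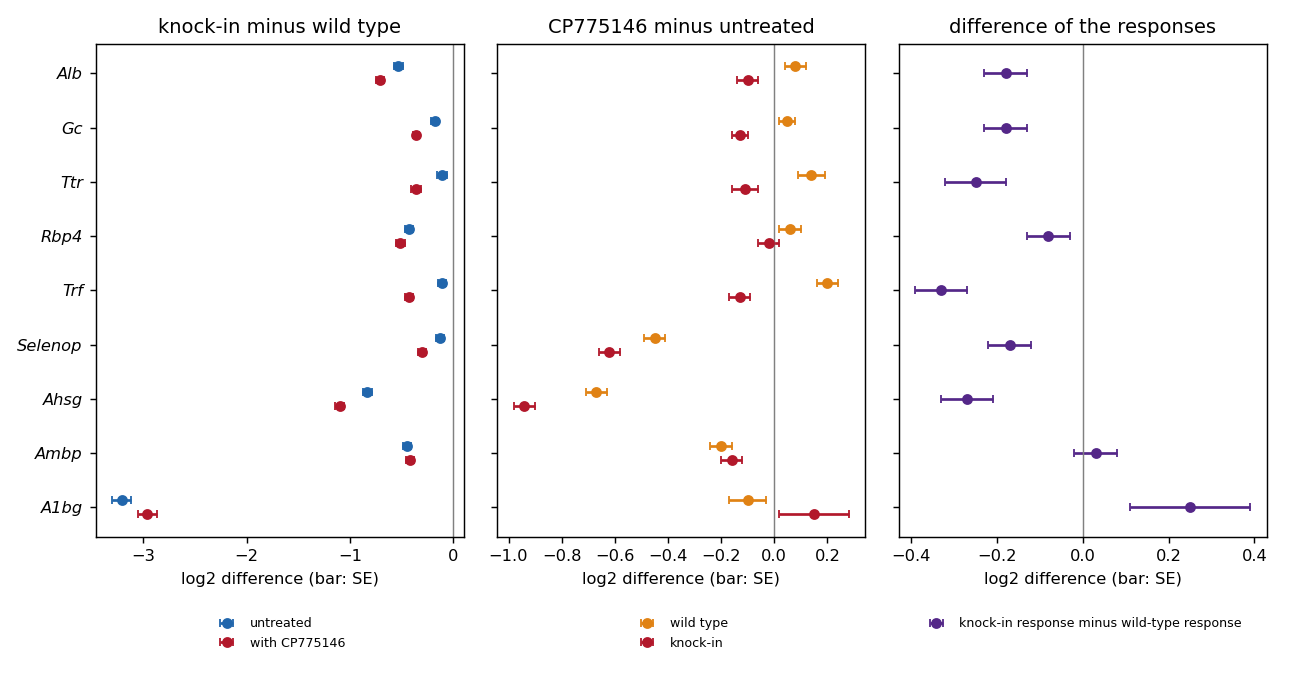
Log2 differences (points) with their SE (bars) from the edgeR fit for each gene: knock-in minus wild type, CP775146 minus untreated, and the difference of the 2 responses. The values for A1bg between genotypes (-3.21 and -2.96) are shown as a description, and 6 of the other 8 genes lie below 0 by several SE in the right panel, from -0.17 to -0.33.

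**Figure D4:**
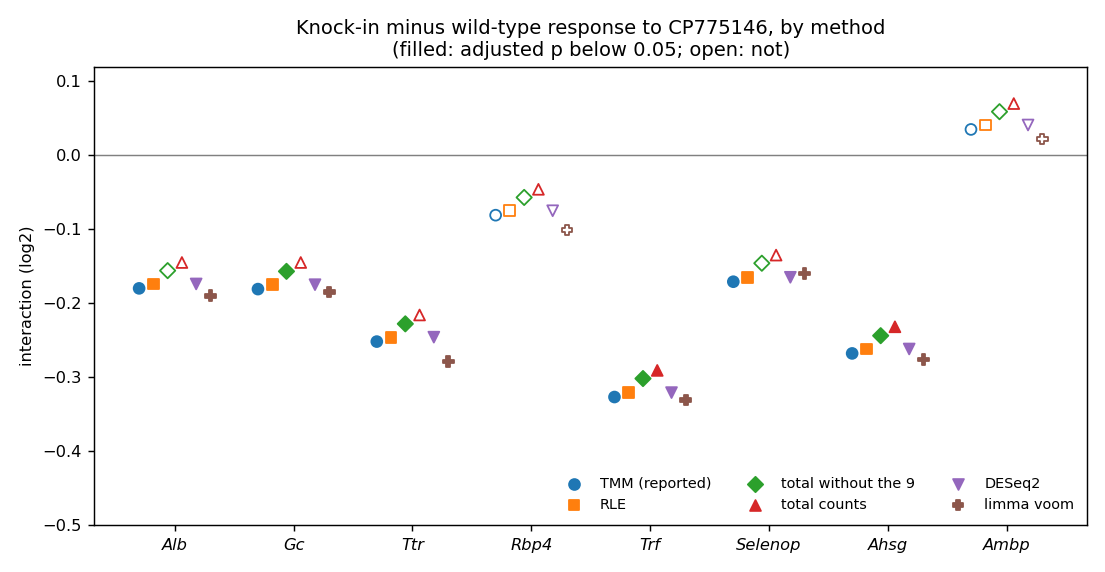
Log2 interaction of genotype and CP775146 for 8 genes under 6 ways of scaling or testing, with filled symbols for adjusted p below 0.05. Every value of Trf lies between -0.33 and -0.29 and every value of Ahsg between -0.28 and -0.23, all filled, whereas Alb, Gc, Ttr and Selenop are open with total-count scaling.

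Ratios to Alb within a library show how the mixture of carriers changed, free of the scaling. Per 100 CPM per kilobase of Alb, untreated wild type held 9.82 ± 0.40 of Gc and 7.89 ± 0.35 of Selenop, and the untreated knock-in held 12.6 ± 0.24 and 10.4 ± 0.31 (SD, n = 3). Ttr to Alb went from 5.02 ± 0.43 to 6.75 ± 0.16. These carriers took a larger place beside Alb in the knock-in. Ahsg to Alb was lower, at 9.38 ± 0.32 against 11.5 ± 0.19, and Ambp to Alb was close, at 3.74 ± 0.13 against 3.54 ± 0.041. With CP775146, Selenop to Alb was 5.47 ± 0.17 in wild type and 7.29 ± 0.059 in the knock-in, 0.693 and 0.698 of the untreated ratio. Ahsg to Alb was 6.86 ± 0.14 and 5.24 ± 0.19, or 0.594 and 0.559 of the untreated ratio. None of the 8 ratios overlapped between untreated genotypes, and each has an exact permutation p of 0.1 and an adjusted p of 0.1 over the 8 ratios, the smallest that this design allows. The CPM of 47.4% of all tested genes did not overlap between these groups either. All of the ratios but Rbp4 to Ttr share Alb as denominator, so a change in Alb moves them together and they are not separate results.

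**Figure D5:**
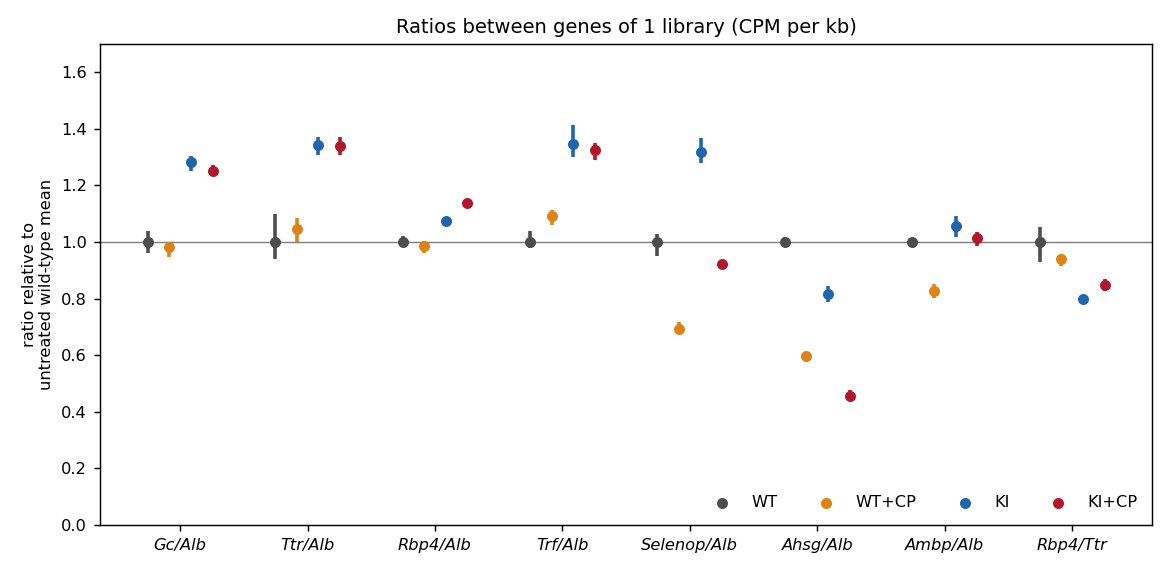
Ratios between genes of the same library in CPM per kilobase, relative to the untreated wild-type mean (points are group means, bars the range of 3 libraries, linear axis from 0). Gc, Ttr, Trf and Selenop stand at 1.28 to 1.35 relative to Alb in the untreated knock-in, and Ahsg to Alb stands lowest in the treated knock-in (5.24 per 100 against 11.5).

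The neighbourhood of each carrier was examined with gene lists that, like the 9 genes, were chosen with earlier results known. Their counts stand beside the shares of all genes given above (18.4% higher and 18.6% lower for the untreated knock-in, 22.7% and 22.3% for CP775146 in wild type). Of 29 tested other plasma carriers and secreted proteins, 19 were lower and 4 higher in the untreated knock-in (median log2 -0.36), and 22 lower and 4 higher in treated cells (median -0.46). The smallest adjusted p-values untreated belonged to Pzp, a protease inhibitor of the alpha-2-macroglobulin family (3030 ± 103 to 1350 ± 24.7 CPM), Igfbp2, a carrier of insulin-like growth factors (171 ± 10.8 to 63.5 ± 1.68 CPM), Afm, the vitamin E binding albumin relative (116 ± 3.01 to 58.5 ± 1.67 CPM), and Itih1 (363 ± 4.01 to 212 ± 4.56 CPM). The 4 higher genes were the fetal albumin relative Afp (log2 0.95, edgeR adjusted p = 3.81e-09), Serpina7, which carries thyroxine (0.72, adjusted p = 0.000301), the copper carrier Cp (0.35, adjusted p = 1.59e-08) and Igfbp4 (0.15, adjusted p = 0.0146). In the albumin family on chromosome 5, Alb, Gc and Afm were thus lower and Afp higher, with Afp at 7.40 ± 0.91 CPM in wild type and 14.3 ± 0.932 in the knock-in. CP775146 called 7 higher and 11 lower in wild type and 4 higher and 12 lower in the knock-in, and the interaction called 3 lower (Itih2, Pon1 and Afm) and 0 higher.

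Bikunin is coupled to heavy chains from the Itih genes. Of 6 tested partners of Ambp, 5 were lower and 1 higher in the untreated knock-in, among them Itih1 (log2 -0.78, SE 0.03, edgeR adjusted p = 4.88e-17), Itih3 (-0.43, adjusted p = 1.43e-11) and Itih4 (-0.35, adjusted p = 1.12e-08). The higher gene was Itih5 (13.6 CPM in wild type and 25.4 in the knock-in, adjusted p = 1.31e-12). Itih1 to Itih4 also belong to the list of other carriers.

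Of 10 tested retinol genes around Rbp4 and Ttr, 5 were lower and 1 higher in the untreated knock-in. Aldh1a1, which oxidises retinal, was the higher one (821 against 2190 CPM, log2 1.42, edgeR adjusted p = 8.91e-19). Stra6l, a receptor for Rbp4, was lower (295 against 204 CPM, adjusted p = 1.41e-12), as was the carotene cleaving enzyme Bco1 (267 against 187 CPM, adjusted p = 7.61e-12). In wild type CP775146 called 3 retinol genes higher and 5 lower. Aldh1a1 rose to 2290 CPM, and the retinal reductases Rdh11 (136 to 224 CPM) and Dhrs3 (27.9 to 52.8 CPM) rose as well, while Rbp4 was not called. The interaction called Aldh1a1 (log2 -0.88), Dhrs3 (-0.48) and Rdh11 (-0.23) lower, with edgeR adjusted p of 1.42e-09, 0.000575 and 0.00728.

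Of 17 iron genes around Trf, 4 were higher and 9 lower in the untreated knock-in. Tmprss6, a protease that limits hepcidin signalling, went from 360 to 258 CPM (edgeR adjusted p = 5.57e-12), and Slc40a1, the iron exporter ferroportin, from 256 to 196 CPM (adjusted p = 2.95e-09). Steap3, a ferrireductase, was higher (16.7 against 23.6 CPM, adjusted p = 1.19e-07). Of the pair of hepcidin copies, Hamp2 was higher (1.24 against 3.30 CPM, adjusted p = 2.74e-07), at a level where reads of the near-identical Hamp make the split uncertain. The interaction called Tfrc, the transferrin receptor, higher (from 120 CPM untreated to 125 CPM treated in wild-type cells, against 180 to 269 CPM in knock-in cells, log2 0.52, edgeR adjusted p = 0.0203). It called the iron importer Slc11a2 (-0.26, adjusted p = 0.00121) and Slc40a1 (-0.17, adjusted p = 0.0497) lower.

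Of 22 selenium genes around Selenop, CP775146 called 9 higher and 5 lower in wild type and 7 higher and 4 lower in the knock-in, with medians of 0.06 and 0.04. Sephs2, which makes the selenium donor for selenoprotein synthesis, fell from 257 to 179 CPM in wild type (log2 -0.53, edgeR adjusted p = 2.85e-12) and from 226 to 161 CPM in the knock-in (-0.49, adjusted p = 1.79e-11), as Selenop did. The selenoproteins Dio1, a thyroid hormone deiodinase (6.65 to 29.0 CPM in wild type, adjusted p = 1.70e-20), and Msrb1 (60.4 to 81.0 CPM, adjusted p = 1.14e-08) rose. Selenop thus fell while the median of the list was near 0.

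Of 10 tested genes for receptors that bind or recycle carriers, CP775146 called 3 higher and 3 lower in wild type (median log2 -0.04). The 3 lower genes were B2m, Stab1 and Stab2. Fcgrt, the receptor that returns albumin from endosomes to plasma, rose from 71.8 to 206 CPM in wild type (log2 1.52, edgeR adjusted p = 8.04e-22) and from 80.7 to 181 CPM in the knock-in (1.17, adjusted p = 5.03e-19). Its rise was smaller in the knock-in (interaction -0.35, adjusted p = 0.000543). B2m, its light chain, averaged 1260 CPM in wild type without the agonist and 1110 CPM with it, against 1090 and 1080 CPM in the knock-in. Asgr1, a subunit of the asialoglycoprotein receptor, also rose, from 199 to 337 CPM in wild type.

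Among 18 transcription factors known to act on liver promoters such as that of Alb, 5 were higher and 8 lower in the untreated knock-in. Nfil3 (61.5 against 45.1 CPM, edgeR adjusted p = 8.73e-10), Hlf (20.4 against 14.2 CPM, adjusted p = 1.69e-06) and Tef (75.5 against 62.2 CPM, adjusted p = 4.20e-06) were lower, and Foxa1 was higher (18.0 against 26.8 CPM, adjusted p = 3.83e-09). In treated cells 4 were higher and 4 lower in the knock-in (median log2 -0.05), beside 20.5% and 22% of all genes. CP775146 called 4 of the 18 higher and 12 lower in wild type, and 2 higher and 7 lower in the knock-in. The interaction called 3 higher and 0 lower (median 0.07), beside 2.78% and 4.33% of all genes. Foxa2 fell from 39.3 to 24.0 CPM in wild type (edgeR adjusted p = 5.11e-12), and Nr5a2 from 43.2 to 31.3 CPM (adjusted p = 2.14e-08).

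Secreted proteins enter the endoplasmic reticulum through the signal recognition particle and the translocon. Of 31 tested genes of this route, 9 were higher and 3 lower in the untreated knock-in, with a median of 0.05. In wild type CP775146 called 10 higher and 2 lower, so in both comparisons 12 of 31 were called, beside 37% and 45% of all genes. The smallest adjusted p-values in wild type belonged to the folding enzyme P4hb (925 to 1300 CPM, edgeR adjusted p = 9.66e-13) and the chaperone Hspa5 (815 to 1050 CPM, adjusted p = 1.27e-09). Hspa5 rose less in the knock-in (interaction -0.23, adjusted p = 0.00359).

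Over the same groups, 11 of 17 hepatocyte markers outside the 9 genes were called lower and 3 higher in the untreated knock-in (median -0.25), and CP775146 called 11 lower and 3 higher in wild type. Their sum was 23000 to 23600 CPM in wild type, 21600 to 21900 in the knock-in, 19100 to 19400 in treated wild type and 17900 to 18500 in the treated knock-in. Markers of other cells differed too. The 10 macrophage markers summed to 233 to 273 CPM in wild type and 185 to 195 in the knock-in (214 to 222 and 148 to 167 treated), a sum that rests mostly on Cd68 (234 and 151 CPM), which other cells also express. Most other macrophage markers were not lower: of the 9 tested, 3 were called higher and Cd68 lower in the untreated knock-in (median log2 0.32), and 5 higher and 1 lower in treated cells (median 0.52). The 10 endothelial markers summed to 79.8 to 91.6 against 50.1 to 55.9 CPM (70 to 71.7 and 38 to 43.5 treated), mostly Stab2, and the 10 stellate cell markers to 189 to 221 against 109 to 123 CPM (161 to 198 and 68.2 to 78.8 treated), mostly Reln. Of 8 tested endothelial markers 2 were called lower in the untreated knock-in, of 8 stellate markers 3, and none higher. The 9 cholangiocyte markers summed to 34.5 to 38.8 CPM in wild-type and 66.7 to 69.8 CPM in knock-in cells (48.6 to 49.6 and 66.8 to 71.4 treated), and 6 of the 7 tested were called higher in the untreated knock-in. Cd68, Stab2 and Reln were named after their values were seen, no marker of these 4 lists was at 0 in all libraries, and the part of these cells in the results was not tested.

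Genes with the most similar pattern over the 12 libraries were ranked by the root mean square difference of log2 CPM after centring each gene on its own mean. For Alb, among 9359 genes of at least 5 CPM, the nearest were F2 (prothrombin, 0.042), C1s1 (0.042), Ces1c (0.046), Serpina3k (0.05) and C9 (0.053). F2 was 1790 CPM in wild type and 1160 in the knock-in, and Serpina3k was 7300 and 4690. For A1bg, among 10952 genes of at least 1 CPM, Serpina1e stood closest at 0.111, and the next were Tmod1 (0.446), A2m (0.459), Angptl2 (0.471) and Slco1a1 (0.482). Serpina1e was 518 CPM in wild type, 513 with CP775146, 55.9 in the knock-in and 58.5 in the treated knock-in. It has near-identical copies, so its counts are uncertain, and since A1bg was chosen for its fall these are descriptions of shared levels.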

How the data were processed

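Per the labels' protocols, a TruSeq kit turned total RNA into RNA-seq libraries. The deposited values are raw counts of reads per gene, which the authors obtained by running featureCounts 1.6.2 on exons without strand or multi-mapping options, per the file headers, on mm10 with Ensembl release 83. The submitters' processing notes name featureCounts 1.4.6-p4, Subread, cutadapt 1.9, FastQC 0.11.2 and edgeR 3.18.1. Of 46983 gene IDs 46488 were matched to a symbol.

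Counts were filtered (filterByExpr, minimum count 10, minimum total 15), scaled by TMM and tested by quasi-likelihood (robust glmQLFit, glmQLFTest; edgeR 4.0.16, R 4.3.3) with 1 term per group over 12 libraries. Benjamini-Hochberg adjustment ran over 15664 genes, and calls needed an adjusted p below 0.05. The script was tested on simulated data. The members, the gene lists and the rules were chosen with earlier results of these data known. Text names all 9 genes, up to 4 genes per list with the smallest adjusted p, the 5 nearest patterns of Alb and A1bg, Mtdh and Ehhadh, and others where stated; genes withheld from the text are not reported here. Alternatives were RLE and total-count scaling, library sizes without the 9 genes, DESeq2 1.42.0, limma 3.58.1 voom, no filter or a minimum of 5 CPM in 3 libraries, each contrast fitted on its own groups, a replicate block and leaving out each library. Totals were 26956032 to 34885451 counts, and counting error is not the only limit on precision. Between 2 libraries of a group, chi-square per degree of freedom over genes was 1.7 to 6.79, more than counting error alone gives. Deviations from the group means of same-numbered libraries correlated at 0.123 to 0.138 between the treated genotypes (other numbers -0.12 to -0.005). Over all groups, libraries of different number correlated at -0.179 to 0.239. The labels give only the number, so whether these libraries are pairs is uncertain. All tests given above are unpaired, and the replicate block was an alternative only. Motif and ratio work used Python 3.11.15 and scipy 1.17.1.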

Additional observations from a re-analysis of the deposited data

Results flagged for a closer look

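The response to CP775146 differed between the genotypes, by edgeR's test of the interaction itself, for 6 of the 8 genes tested. Over all genes 4.33% were called lower and 2.78% higher. Among the 218 genes with a mean of at least 500 CPM, 22.5% were called lower and 5.5% higher. The count of 6 was not stable. It was 2 with total-count scaling and 4 with total counts less the carrier genes as library size. Leaving out each library gave 2 to 6. Trf and Ahsg kept their calls in each of these fits. The log2 interaction, knock-in minus wild type, was -0.18 for Alb, -0.18 for Gc, -0.25 for Ttr, -0.33 for Trf, -0.17 for Selenop and -0.27 for Ahsg. For Trf the 2 responses were opposite in sign (0.20 and -0.13), for Ahsg and Selenop both were falls, and for Alb, Gc and Ttr 1 of the 2 responses did not pass on its own.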

How the results depend on the processing

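RLE scaling, DESeq2, limma voom, both other filters and the replicate block kept every count of called carriers within 1.5 times, and calls near the threshold moved: Ttr with CP775146 in the knock-in passed with voom, with no filter and with the block (log2 -0.11, adjusted p = 0.0383), Alb with CP775146 in wild type passed with voom, and the untreated Trf difference was lost with no filter. The replicate block changed no other call, and the treated groups alone with the block, added after the data were seen, gave 8 of 8 called lower. In the other comparisons of 2 groups that were tested, same-numbered libraries correlated between -0.166 and 0.129. Between treated knock-in and untreated wild type, which were not compared, they reached 0.2. Of the 12 libraries, 6 were closer to their own number than to others. The reported tests treat no libraries as pairs. With total-count scaling the genes called lower in the untreated knock-in went from 7 to 4, those called higher by CP775146 in wild type from 2 to 1, and the interaction from 6 to 2. The genes called higher by CP775146 in wild type were 0 with total counts without the 9 genes and 1 in a fit of the compared groups alone. Leaving out each library gave 1 to 2 for that count and 2 to 6 for the interaction. The log2 response of Alb, Gc and Rbp4 in wild type turned from positive to -0.023, -0.051 and -0.042 with total-count scaling and to -0.036, -0.065 and -0.055 without the 9 genes. The median over all genes then shifts as well, to -0.104 and -0.118.

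Total-count scaling made 74.5% of called genes higher in the untreated knock-in (49.7% with TMM), 76.1% in the treated knock-in (48.3%), 30.7% with CP775146 in wild type (50.4%), 32.2% in the knock-in (48.7%) and 56.1% in the interaction (39.1%). Library sizes without the 9 genes gave 63.4, 65.5, 28.5, 26.9 and 50.6%. Calls over all genes with total-count scaling were 5023 higher and 1722 lower against 2884 and 2918 in the untreated genotype comparison, 5948 and 1870 against 3218 and 3447 in the treated one, 2360 and 5336 against 3553 and 3496 for CP775146 in wild type, and 663 against 435 higher in the interaction. Without the 9 genes they were 2252 and 5638 in wild type and 1846 and 5004 (against 2832 and 2989) in the knock-in, and leaving out untreated knock-in library 1 or 2 or treated library 1 gave 270, 271 and 251 higher in the interaction. The causes of these changes were not tested.

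Over the single values of the 9 genes, leaving out a library lost a tested call 34 times, kept the direction and the side of the threshold 266 times and reversed 0, while some values within their side moved (Ttr between untreated genotypes from -0.106 to -0.042 without untreated wild-type library 3). The counts of A1bg in the knock-in limit its precision.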
